A study of Mus musculus with 5 samples.

Results

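The genes of the mitochondrial chromosome were followed in 5 RNA sequencing libraries of Ba/F3, a pro-B cell line of the mouse that grows on interleukin-3. Members were the rows of the deposited table whose locus lies on the chromosome named MT. There were 15 such rows among 50867, namely 13 protein genes, 2 ribosomal RNA genes and 0 transfer RNA genes. All 15 passed a minimum of 1 CPM (counts per 1e+06 counts of the scaled library size) on average, and 13 had a mean of at least 20 counts. The cells had been infected with lentivirus, and 1 library each was labelled PMSCV, S_PXT1, S_PXT1_K118R, WT and WT_K118R. PMSCV names a retroviral vector and served as the reference, K118R names a lysine to arginine substitution, and the labels do not spell out S and WT. All 5 groups share the cell line and the infection. With 1 library per group there is no replicate check and no test, and every interval below covers counting error only.

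Mitochondrial DNA is a small circle that is transcribed from both strands into long RNAs. These RNAs are cut, mostly at the transfer RNAs, into ribosomal RNAs and messengers. The protein genes encode core subunits of complexes I, III and IV of the respiratory chain and of ATP synthase, while all other subunits are encoded in the nucleus. The ribosomal RNAs 12S and 16S belong to the ribosome that translates these messengers inside the organelle. Since the messengers of a strand are made together, the level of each also depends on how it is processed and how stable it is. A pair of messengers, ND4L with ND4 and ATP8 with ATP6, each carries overlapping reading frames on a shared RNA.

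The overlaps matter here because the rows of each pair divided their counts differently between libraries. In the table MT-ND4L (positions 10470 to 10766) and MT-ND4 (10760 to 12137) share 7 bases, and MT-ATP8 (8366 to 8572) and MT-ATP6 (8527 to 9207) share 46 bases. The mouse genes overlap in the same way, by 7 and 43 bases. The sequences below are from the GENCODE M21 mouse transcripts (GRCm38, plus strand of chromosome M), 5′ to 3′. Each shows the 60 bases at the end of a gene that holds the overlap, with the overlap included. Capitals mark the bases that both genes of a pair share. They are shown to place the overlap and are not the models on which the reads were counted.
mt-Nd4l, last bases (chrM:10114-10173): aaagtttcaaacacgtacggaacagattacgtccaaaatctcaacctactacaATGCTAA
mt-Nd4, first bases (chrM:10167-10226): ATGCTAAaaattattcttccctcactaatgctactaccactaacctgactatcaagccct
mt-Atp8, last bases (chrM:7910-7969): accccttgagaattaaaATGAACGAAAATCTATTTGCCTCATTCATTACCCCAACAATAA
mt-Atp6, first bases (chrM:7927-7986): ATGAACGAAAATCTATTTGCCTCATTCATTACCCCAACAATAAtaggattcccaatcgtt

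The libraries held between 250409 and 351693 counts, so 1 count corresponded to between 2.92 and 3.93 CPM. The table lists human gene models although the labels give mouse cells, and what share of a mouse transcript a human model collects depends on its sequence. Of 16 markers of pro-B and other blood cells, 10 were at 0 in all 5 libraries, CD79A, CD79B and IL3RA among them, and the list summed to between 0 and 30 counts. PXT1, named in the labels, also had 0 counts in all 5 libraries and so gave no check of them. The S_PXT1 and S_PXT1_K118R libraries stood apart, with counts for 7393 and 7044 genes against 11492 to 11712 in the others. The 10 epithelial markers summed to 279, 744 and 383 counts in PMSCV, WT and WT_K118R, and to 1 and 0 in S_PXT1 and S_PXT1_K118R. The 4 plasma cell markers ran from 22 to 636 counts in the first 3 libraries and stood at 2 in each of the others. For 7 muscle markers these ranges were 11 to 284 counts and 0 to 1 counts, and for 3 prostate markers 71 to 92 counts and 0. The 3 endothelial markers summed to 3 to 19 counts and 0. The 5 fibroblast markers were counted in all libraries, at 437 to 587 counts and 187 to 195 counts. ACTA1, MYH7 and CKM of muscle and CDH5 of endothelium were at 0 in all 5 libraries. These lists were lower in both S_PXT1 libraries than in the others, as was the mitochondrial share below. Some also differed among PMSCV, WT and WT_K118R, with plasma cell sums of 636, 425 and 22 counts and muscle sums of 68, 284 and 11. The mitochondrial share there was 1.25%, 1.30% and 1.25%. The part of these lists in the mitochondrial result was not tested.

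The mitochondrial chromosome held a lower share of the counts in both S_PXT1 libraries. It took 1.25% of the counts in PMSCV (95% Clopper-Pearson interval 1.20 to 1.29), 1.30% in WT (1.26 to 1.33) and 1.25% in WT_K118R (1.22 to 1.29). In S_PXT1 it took 0.658% (0.627 to 0.690) and in S_PXT1_K118R 0.571% (0.542 to 0.601). Summed over the 15 rows, the level was 13327 CPM in WT, 12901 in WT_K118R and 11828 in PMSCV, but 6643 in S_PXT1 and 5618 in S_PXT1_K118R. In bulk RNA, fewer cells of a type and less RNA per cell cannot be told apart. An effect of the S_PXT1 construct cannot be told apart from anything else its 2 libraries share.

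Gene by gene, 12 of 15 members had both S_PXT1 libraries below each of the other 3 in CPM, and 0 had both above. Of all 13352 genes at a mean of at least 1 CPM, 24.8% lay below in this way and 8.69% above. Among the 1547 genes of at least 20 mean counts, where 12.6% lay below and 24.6% above, 11 of 13 members lay below. The exceptions were MT-ND3, MT-ND4L and MT-ND4, which are described with complex I. MT-ND6 is among the 12 on 1 count in each S_PXT1 library against 2 to 5 in the others, too few to compare. MT-ATP6 is among the 11, but reached that mean through PMSCV, WT and WT_K118R alone and adds no support there. The plot of FPKM by gene (counts per length and library size) shows these levels along the chromosome. Levels are read between libraries, since rows of 1 shared RNA differed widely within a library, MT-ND4L at 1299 and MT-ND4 at 8.16 FPKM in PMSCV.

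**Figure D1:**
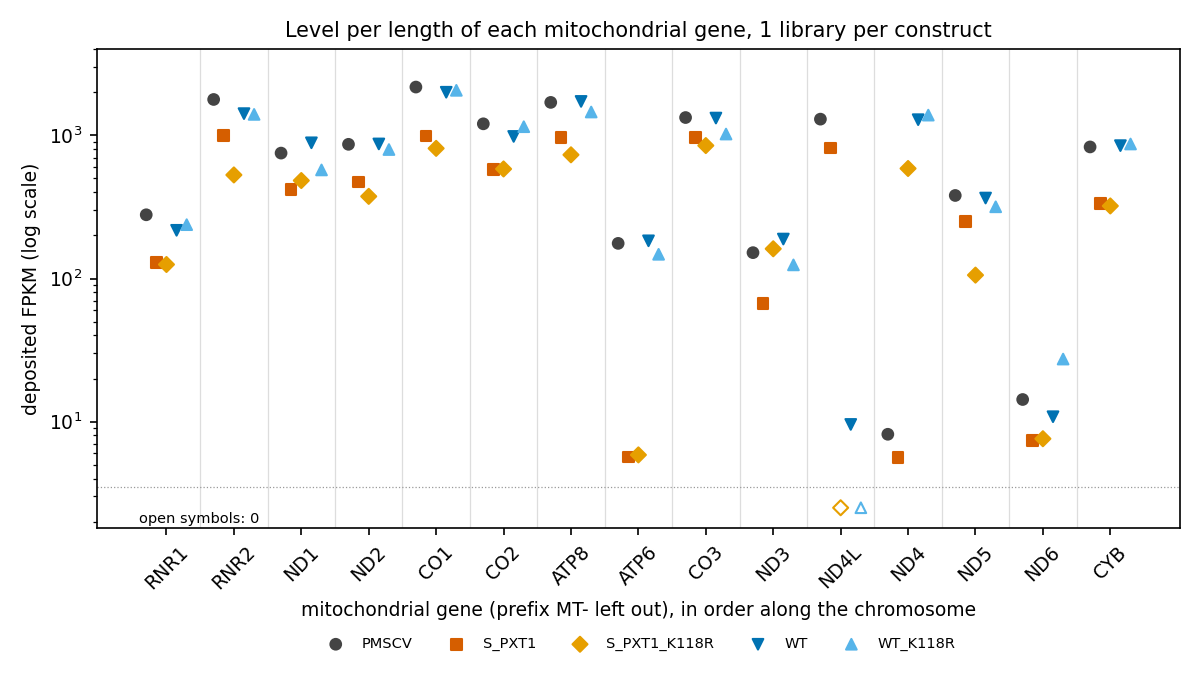
Deposited FPKM (log axis) of the 15 mitochondrial genes in order along the chromosome, 1 point per library. Both S_PXT1 libraries sit below the other 3 except at MT-ND3, MT-ND4L and MT-ND4, and open symbols mark MT-ND4L at 0 in S_PXT1_K118R and WT_K118R. The points of MT-ND6 rest on 1 to 5 counts, too few to compare.

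Complex IV, cytochrome c oxidase, passes electrons to oxygen, and its 3 core subunits are mitochondrial. MT-CO1 (ENSG00000198804, 5904 to 7445), the catalytic subunit, had 1088 counts in WT, 1109 in WT_K118R and 896 in PMSCV, against 396 in S_PXT1 and 314 in S_PXT1_K118R. Its deposited FPKM was the highest of the 15 rows in PMSCV, WT and WT_K118R, between 2003 and 2177 FPKM. In S_PXT1 MT-RNR2 was just above it, at 1002 against 990 FPKM, and in S_PXT1_K118R MT-CO3 was, at 849 against 812 FPKM. MT-CO1 stood in S_PXT1 at 0.485 of its PMSCV level (95% interval of the ratio 0.429 to 0.546), and in S_PXT1_K118R at 0.376 of its WT_K118R level (0.330 to 0.426). Between WT, WT_K118R and PMSCV its ratios lay between 0.999 and 1.03, and each interval included 1.

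MT-CO2 (7586 to 8269), which takes up electrons from cytochrome c, had 220, 102, 100, 237 and 274 counts in PMSCV, S_PXT1, S_PXT1_K118R, WT and WT_K118R. S_PXT1 and S_PXT1_K118R stood at 0.508 (0.398 to 0.646) and 0.502 (0.393 to 0.639) of PMSCV. MT-CO3 (9207 to 9990), a subunit without metal centres, had 279, 196, 167, 365 and 279 counts in the same order. Its ratios to PMSCV were 0.770 (0.638 to 0.928) in S_PXT1 and 0.662 (0.543 to 0.804) in S_PXT1_K118R, nearer to 1 than those of MT-CO1 and MT-CO2. Summed over the complex, the ratio was 0.545 (0.497 to 0.598) for S_PXT1 over PMSCV and 0.464 (0.421 to 0.510) for S_PXT1_K118R over WT_K118R.

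Complex III has cytochrome b as its single mitochondrial subunit. MT-CYB (ENSG00000198727, 14747 to 15887) had 341 counts in WT, 346 in WT_K118R and 253 in PMSCV, against 99 in S_PXT1 and 92 in S_PXT1_K118R. It was the protein gene of at least 20 mean counts, outside the overlapping pairs, with the lowest S_PXT1 over PMSCV ratio, at 0.429 (0.337 to 0.543). The ratio was 0.387 (0.306 to 0.485) for S_PXT1 over WT and 0.353 (0.277 to 0.445) for S_PXT1_K118R over WT_K118R. S_PXT1_K118R over S_PXT1 was 0.937 (0.698 to 1.26) and WT over PMSCV 1.11 (0.939 to 1.31), both intervals with 1 inside.

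ATP synthase has 2 mitochondrial subunits of its membrane part, ATP8 and the proton channel subunit ATP6. MT-ATP8 had 126 counts in WT, 105 in WT_K118R and 94 in PMSCV, against 52 in S_PXT1 and 38 in S_PXT1_K118R. MT-ATP6 had 44 counts in WT, 35 in WT_K118R and 32 in PMSCV, and 1 count each in S_PXT1 and S_PXT1_K118R. Its S_PXT1 over PMSCV ratio was 0.0343 (0.000841 to 0.205), far below that of MT-ATP8 on the same RNA, at 0.606 (0.424 to 0.860). MT-ATP6 held 25.4%, 25.9% and 25.0% of the pair's counts in PMSCV, WT and WT_K118R, against 1.89% in S_PXT1 (0.0478 to 10.1) and 2.56% in S_PXT1_K118R (0.0649 to 13.5).

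A nuclear copy of the same gene was lowest in PMSCV instead. MTATP6P1 (chromosome 1, 633696 to 634376, plus strand) is a pseudogene that can share reads with MT-ATP6. It had 47 counts in WT, 37 in WT_K118R and 9 in PMSCV, against 21 in S_PXT1 and 23 in S_PXT1_K118R. MT-ATP6 and MTATP6P1 together had 91 counts in WT, 72 in WT_K118R and 41 in PMSCV, against 22 in S_PXT1 and 24 in S_PXT1_K118R. The S_PXT1 over PMSCV ratio of this sum was 0.588 (0.334 to 1.01). The ratio of the sum was 0.322 (0.193 to 0.518) for S_PXT1 over WT and 0.442 (0.266 to 0.710) for S_PXT1_K118R over WT_K118R. For S_PXT1_K118R over PMSCV it was 0.647 (0.374 to 1.10). The intervals of both S_PXT1 libraries against PMSCV thus include 1, while those against the WT libraries do not.

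MTND2P28 (chromosome 1, 629640 to 630683), a copy of ND2, had 20, 11, 8, 30 and 19 counts in PMSCV, S_PXT1, S_PXT1_K118R, WT and WT_K118R, few beside MT-ND2. Of the other 378 rows named as nuclear copies of mitochondrial genes, 44 had any count, with at most 2 in a library, and they summed to between 16 and 19 counts. MTATP6P14, MTATP8P1 and MTCO1P21 had 1 count in every library.

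Complex I, NADH dehydrogenase, takes electrons from NADH, and 7 of its subunits are mitochondrial. MT-ND1 (ENSG00000198888, 3307 to 4262), next to the quinone site, had 299 counts in WT, 191 in WT_K118R and 192 in PMSCV, against 104 in S_PXT1 and 116 in S_PXT1_K118R. MT-ND2 (4470 to 5511), a proton-pumping subunit, had 320 counts in WT, 289 in WT_K118R and 241 in PMSCV, against 128 in S_PXT1 and 98 in S_PXT1_K118R. In both genes the S_PXT1 libraries were the lowest, at 385 to 499 CPM against 566 to 936 CPM. For S_PXT1_K118R over WT_K118R the ratio of MT-ND1 was 0.806 (0.634 to 1.02), with 1 inside the interval. That of MT-ND2 was 0.450 (0.354 to 0.567). MT-ND1 also differed within the other libraries, with a WT over PMSCV ratio of 1.28 (1.06 to 1.54) and a WT_K118R over WT ratio of 0.647 (0.537 to 0.779).

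MT-ND5 (ENSG00000198786, 12337 to 14148), another pumping subunit, had 233 counts in WT, 200 in WT_K118R and 184 in PMSCV, against 117 in S_PXT1 and 48 in S_PXT1_K118R. It was lowest in S_PXT1_K118R, at 0.414 (0.289 to 0.584) of S_PXT1 and 0.318 (0.227 to 0.438) of WT_K118R. MT-ND3 (10059 to 10404) had few counts, 14, 6, 14, 23 and 15 in PMSCV, S_PXT1, S_PXT1_K118R, WT and WT_K118R. S_PXT1 was its lowest library, and S_PXT1_K118R overlapped the others, with a ratio over S_PXT1 of 2.35 (0.849 to 7.47). MT-ND6 (14149 to 14673) is the only protein gene on the minus strand, and its 2, 1, 1, 2 and 5 counts do not allow a comparison at this depth.

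The remaining rows of complex I, MT-ND4L and MT-ND4, exchanged their counts between libraries. MT-ND4L (ENSG00000212907) had 103 counts in PMSCV and 63 in S_PXT1, but 0 in S_PXT1_K118R, 1 in WT and 0 in WT_K118R. MT-ND4 (ENSG00000198886) had 3 counts in PMSCV and 2 in S_PXT1, but 203 in S_PXT1_K118R, 625 in WT and 665 in WT_K118R. MT-ND4 held 2.83% of the pair's counts in PMSCV (0.587 to 8.05) and 3.08% in S_PXT1 (0.375 to 10.7). In WT it held 99.8% (99.1 to 100), and in S_PXT1_K118R and WT_K118R all counts lay on it. In every library nearly all counts were on a single row of the pair, and the libraries divided as PMSCV with S_PXT1 against the other 3. This division follows neither the construct nor the substitution.

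Taken alone, the rows gave very large ratios in opposite directions. MT-ND4 in S_PXT1_K118R over S_PXT1 had a ratio of 102 (28.0 to 851), while MT-ND4L was at least 20.8-fold lower. In WT over PMSCV MT-ND4 had a ratio of 171 (58.4 to 833) and MT-ND4L 0.00798 (0.000200 to 0.0455). Summing both rows as 1 locus gave 626 counts in WT, 665 in WT_K118R and 106 in PMSCV, against 65 in S_PXT1 and 203 in S_PXT1_K118R. By this sum WT stood at 4.86 times PMSCV (3.95 to 6.02), and S_PXT1_K118R at 3.15 times S_PXT1 (2.37 to 4.23).

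Per length the same locus gave another order. MT-ND4L spans 297 bases and MT-ND4 1378, and the deposited FPKM of a row is its count divided by this span and by a factor of the library. The row that held the counts stood at 1299 FPKM in PMSCV (MT-ND4L), 818 in S_PXT1 (MT-ND4L), 587 in S_PXT1_K118R (MT-ND4), 1288 in WT (MT-ND4) and 1386 in WT_K118R (MT-ND4). The summed FPKM of the pair had a WT over PMSCV ratio of 0.992 against 4.86 by counts. For S_PXT1_K118R over S_PXT1 it was 0.713 against 3.15 by counts, and for S_PXT1_K118R over PMSCV 0.449 against 2.12. Per length the locus was lower in the 2 S_PXT1 libraries than in the other 3, as at the 12 members above. By summed counts PMSCV, at 106, lay below S_PXT1_K118R, at 203. The sources used here do not say how reads were assigned to overlapping rows, nor whether a deposited count is a number of reads or was derived from coverage and length. The FPKM of the row in use was alike in PMSCV and WT, at 1299 and 1288, while its count differed, at 103 and 625. Were counts derived from coverage, the counting intervals given here would not hold, and this was not tested.

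**Figure D2:**
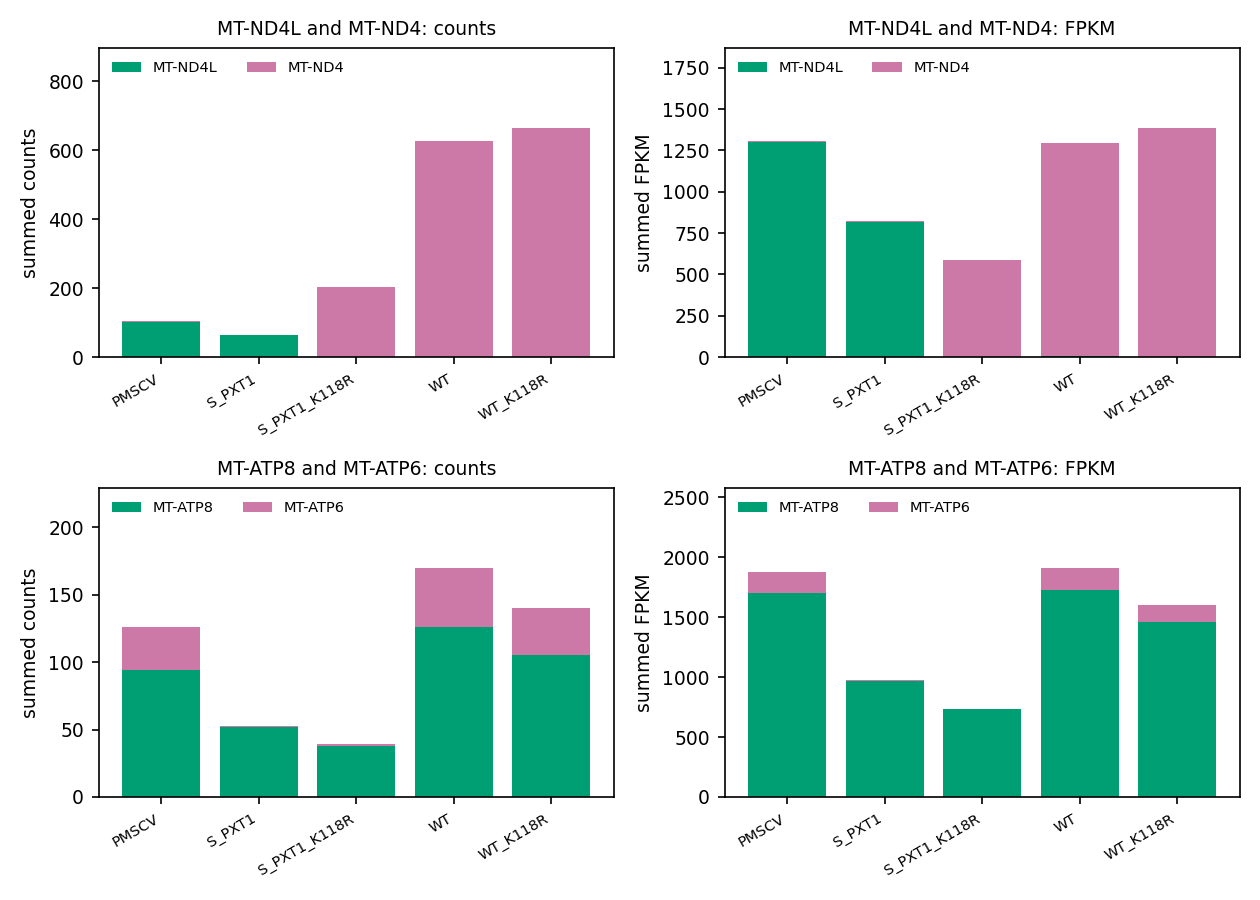
Counts (left) and deposited FPKM (right) of the overlapping pairs MT-ND4L with MT-ND4 (top) and MT-ATP8 with MT-ATP6 (bottom), stacked by row, 1 bar per library. For MT-ND4L with MT-ND4 the summed counts run from 65 to 665, whereas the summed FPKM of PMSCV, WT and WT_K118R lie between 1297 and 1386.

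Without this pair, the other 5 genes of complex I summed to 877 counts in WT, 700 in WT_K118R and 633 in PMSCV, against 356 in S_PXT1 and 277 in S_PXT1_K118R. Their ratio was 0.617 (0.540 to 0.703) for S_PXT1 over PMSCV and 0.525 (0.455 to 0.604) for S_PXT1_K118R over WT_K118R. With the pair the WT over PMSCV ratio of complex I was 1.67 (1.53 to 1.83), and without it 1.14 (1.03 to 1.26).

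The ribosomal RNA rows had their own pattern. MT-RNR2 (ENSG00000210082, 1671 to 3229), the 16S RNA of the large subunit, had 780 counts in WT, 761 in WT_K118R and 742 in PMSCV, against 405 in S_PXT1 and 207 in S_PXT1_K118R. MT-RNR1 (648 to 1601), the 12S RNA of the small subunit, had 73 counts in WT, 79 in WT_K118R and 71 in PMSCV, against 32 in S_PXT1 and 30 in S_PXT1_K118R. MT-RNR2 was lowest in S_PXT1_K118R, at 0.515 (0.434 to 0.611) of S_PXT1, whereas MT-RNR1 stood at 0.945 (0.555 to 1.61) of it. The interval of MT-RNR1 reaches into that of MT-RNR2. MT-RNR2 took 14.5% of the mitochondrial counts in S_PXT1_K118R (12.7 to 16.4) and 23.8% in S_PXT1 (21.8 to 25.9). In PMSCV it took 22.3% (20.9 to 23.8), in WT 17.1% (16.0 to 18.2) and in WT_K118R 17.5% (16.4 to 18.6). These shares include the MT-ND4 pair in the total. Without the pair they were 16.9% (14.8 to 19.1) in S_PXT1_K118R and 24.7% (22.6 to 26.9) in S_PXT1. They were 23.0% (21.6 to 24.5) in PMSCV, 19.8% (18.6 to 21.1) in WT and 20.6% (19.3 to 22.0) in WT_K118R. With either total the interval of S_PXT1_K118R overlapped that of WT. The sources used here do not give the library preparation, and the share of ribosomal RNA depends on it.

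A count of members past 2-fold sets these ratios beside all genes. The call was made on log2 of CPM plus 1. In S_PXT1 over PMSCV 5 of 15 members were lower and 0 higher, where 43.8% of all 13352 genes were lower and 8.64% higher, so the members' share did not exceed that of all genes. Among the 1547 genes of at least 20 mean counts 7.82% were lower and 3.49% higher, and 4 of 13 members were lower, namely MT-CYB, MT-CO1, MT-ATP6 and MT-RNR1. MT-ATP6 reached this mean through 32 to 44 counts in PMSCV, WT and WT_K118R, against 1 count in each S_PXT1 library. Its call is therefore no support. The median log2 ratio over these 13 members was -0.75, against 0.20 over the 1547 genes. All 13 had a log2 ratio below 0, among them MT-ND4 on 2 counts against 3, too few for a ratio to be given. With DESeq2 size factors, which raise every log2 ratio of this comparison by 0.06, 2 of 15 members were lower by 2-fold.

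In S_PXT1_K118R over PMSCV 9 members were lower and 1 higher, where 44.9% of all genes were lower and 8.39% higher. At a mean of at least 20 counts these were 9 and 1 of 13, against 8.34% and 3.10%. The median was -1.16 over the members and 0.15 over the genes. The higher member was MT-ND4, and MT-ND4L was among the lower. MT-ND4L reached a mean of 20 counts through PMSCV and S_PXT1 alone, and MT-ND4 through S_PXT1_K118R, WT and WT_K118R alone. MT-ATP6 reached it through PMSCV, WT and WT_K118R alone. Calls of these rows at this mean, here and in the comparisons below, are no support.

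In S_PXT1 over WT 6 members were lower and 1 higher, where 42.5% of all genes were lower and 9.02% higher. At a mean of at least 20 counts 5 of 13 were lower and 1 higher, against 7.05% and 3.04%, with medians of -0.86 and 0.07. The higher member was MT-ND4L, and MT-ND4 was among the lower. In S_PXT1_K118R over WT_K118R 10 members were lower and 0 higher, where 44.0% of all genes were lower and 8.94% higher. At a mean of at least 20 counts 9 of 13 were lower and 0 higher, against 7.82% and 2.78%, with medians of -1.15 and 0.04. These 2 comparisons share no library with each other. The 4 comparisons against PMSCV share that library, and each S_PXT1 library enters 3 comparisons.

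Against PMSCV the WT libraries had few members past 2-fold. In WT over PMSCV 1 member was lower (MT-ND4L) and 1 higher (MT-ND4), where 23.2% of all genes were lower and 20.3% higher, and 2.65% and 2.71% from 20 mean counts upwards. In WT_K118R over PMSCV the same 2 rows were called, where 24.0% of all genes were lower and 19.9% higher, and 2.71% and 2.84% from 20 mean counts upwards. These rows are the overlapping pair described above. The medians over the 13 members were 0.11 and -0.11, against 0.11 and 0.10 over the 1547 genes. Below 2-fold, MT-RNR2 stood at 0.864 (0.781 to 0.957) in WT and 0.855 (0.772 to 0.947) in WT_K118R, and MT-CO3 at 0.833 (0.703 to 0.987) in WT_K118R. The 11 protein genes without the MT-ND4 pair summed to a WT over PMSCV ratio of 1.05 (0.997 to 1.11) and a WT_K118R over PMSCV ratio of 0.986 (0.934 to 1.04). Scaling by total counts moves every log2 ratio of these comparisons by -0.12, so that no direction is read from ratios this near to 1.

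**Figure D3:**
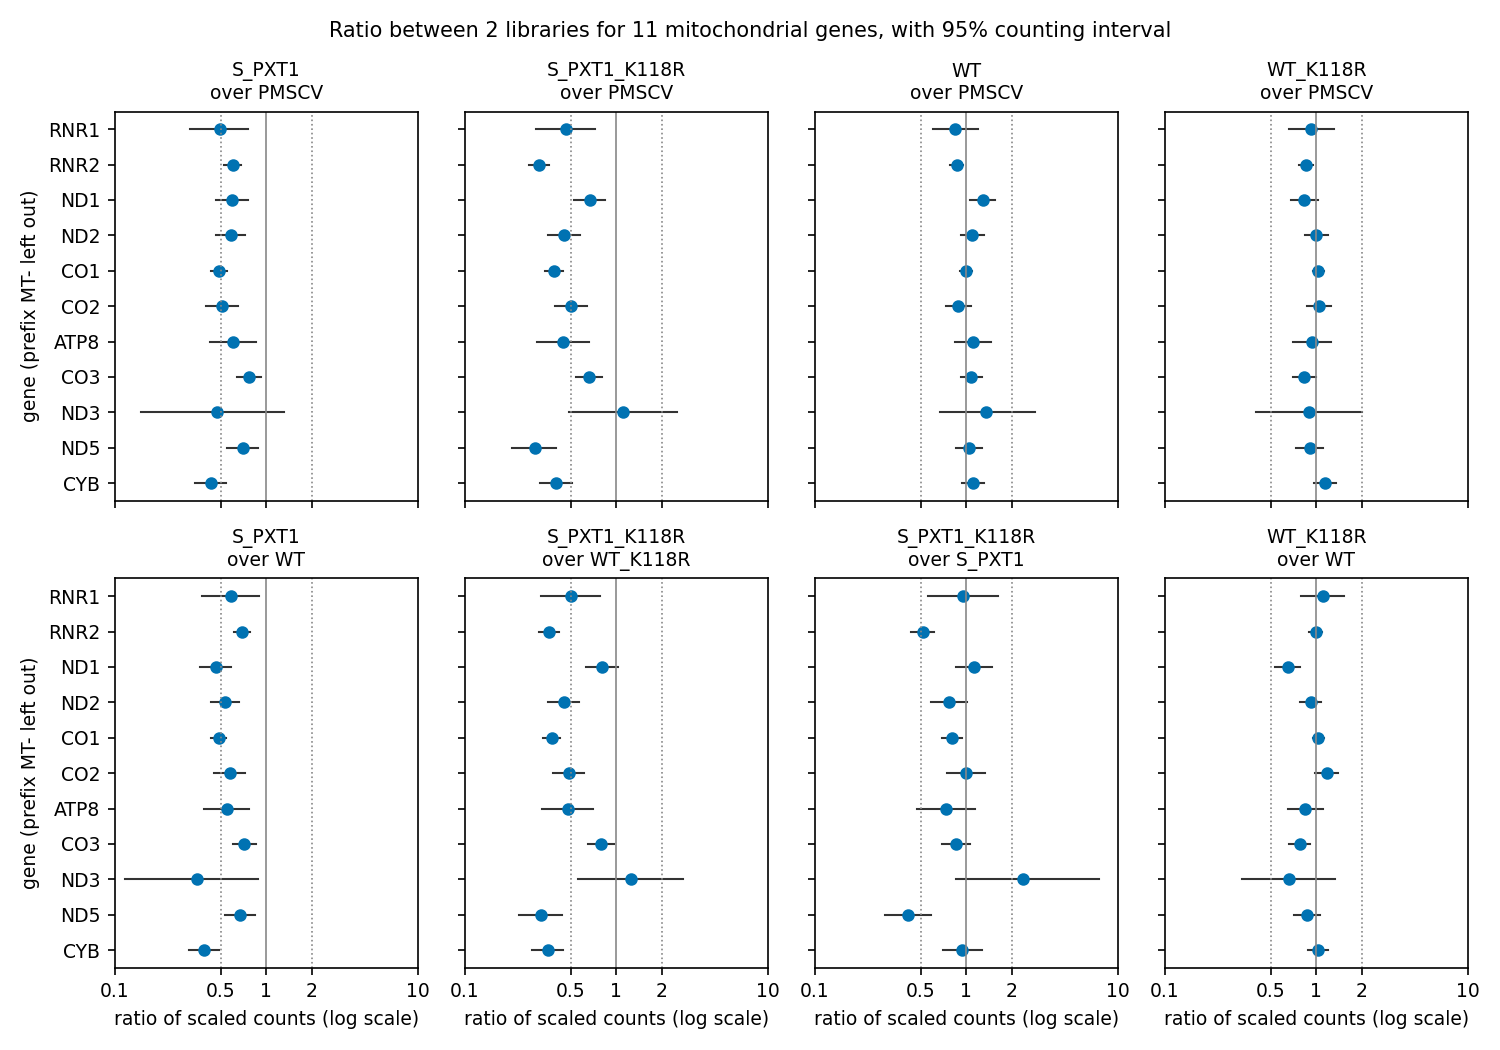
Ratio of scaled counts (log axis) for the 11 mitochondrial genes other than MT-ND4, MT-ND4L, MT-ATP6 and MT-ND6 in each of the 8 comparisons. Points are ratios, bars 95% counting intervals, the solid line 1 and the dotted lines 2-fold, and the S_PXT1 libraries lie to the left of 1 against PMSCV and WT, except MT-ND3 in S_PXT1_K118R.

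The substitution was compared within each construct. In S_PXT1_K118R over S_PXT1 2 members were lower (MT-ND4L and MT-ND5) and 2 higher (MT-ND3 and MT-ND4), where 17.6% of all genes were lower and 15.2% higher. At a mean of at least 20 counts 2 of 13 were lower and 1 higher, against 4.78% and 3.36%. The 11 protein genes without the MT-ND4 pair had a summed ratio of 0.830 (0.762 to 0.903), and the ribosomal RNAs 0.547 (0.465 to 0.642). MT-CO1 stood at 0.800 (0.687 to 0.930), and MT-CO2, MT-CO3 and MT-ATP8 between 0.737 and 0.989 with 1 inside each interval.

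In WT_K118R over WT 1 member was lower (MT-ND4L, 0 counts against 1) and 1 higher (MT-ND6, 5 counts against 2), where 20.9% of all genes were lower and 19.2% higher. At a mean of at least 20 counts 1 of 13 was lower and 0 higher, against 2.84% and 2.46%. The lower member was again MT-ND4L, which reached this mean through 103 counts in PMSCV and 63 in S_PXT1. Its call rests on 0 counts against 1 and is not read as a difference between WT_K118R and WT. The 11 protein genes summed to a ratio of 0.938 (0.891 to 0.987) and the ribosomal RNAs to 0.998 (0.906 to 1.10). MT-ND1 and MT-CO3, at 0.647 and 0.775 (0.660 to 0.908), were the members of at least 20 mean counts whose interval excluded 1. Whether the substitution acted differently in the 2 constructs was not tested, since each had 1 library per state.

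Shares within a library do not depend on how libraries are scaled. Among the 11 protein genes without the MT-ND4 pair, MT-CO1 took 37.2% of the counts in PMSCV (35.3 to 39.2), 35.3% in WT (33.7 to 37.1) and 38.9% in WT_K118R (37.1 to 40.8). In S_PXT1 it took 32.9% (30.3 to 35.7) and in S_PXT1_K118R 31.7% (28.9 to 34.8). MT-CO3 went the other way, with 16.3% (14.3 to 18.5) in S_PXT1 and 16.9% (14.6 to 19.4) in S_PXT1_K118R, against 9.80% to 11.9% in the other 3. MT-CYB took 8.24% and 9.30% in the S_PXT1 libraries and 10.5% to 12.1% in the others. For MT-CO3 the intervals of the S_PXT1 libraries lay above those of the other 3, while for MT-CO1 and MT-CYB some of them overlapped. The row of MT-CO3 shares 1 base with that of MT-ATP6, which held 1 count in each S_PXT1 library. Whether the assignment of reads to rows enters the share of MT-CO3 was not tested.

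Other shares did not set both S_PXT1 libraries apart. MT-ND5 took 4.85% (3.60 to 6.38) in S_PXT1_K118R against 7.02% to 9.73% elsewhere, and its interval overlapped that of WT_K118R alone (6.11 to 8.02). MT-ND1 took 11.7% (9.79 to 13.9) in S_PXT1_K118R and 6.71% (5.82 to 7.69) in WT_K118R, with 7.98% to 9.71% in the others. Its interval in S_PXT1_K118R overlapped those of S_PXT1 and WT, and its interval in WT_K118R those of PMSCV and S_PXT1. MT-ND2 was even, at 9.91% to 10.6% in all 5 libraries, and so was MT-ATP8, at 3.69% to 4.33%.

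**Figure D4:**
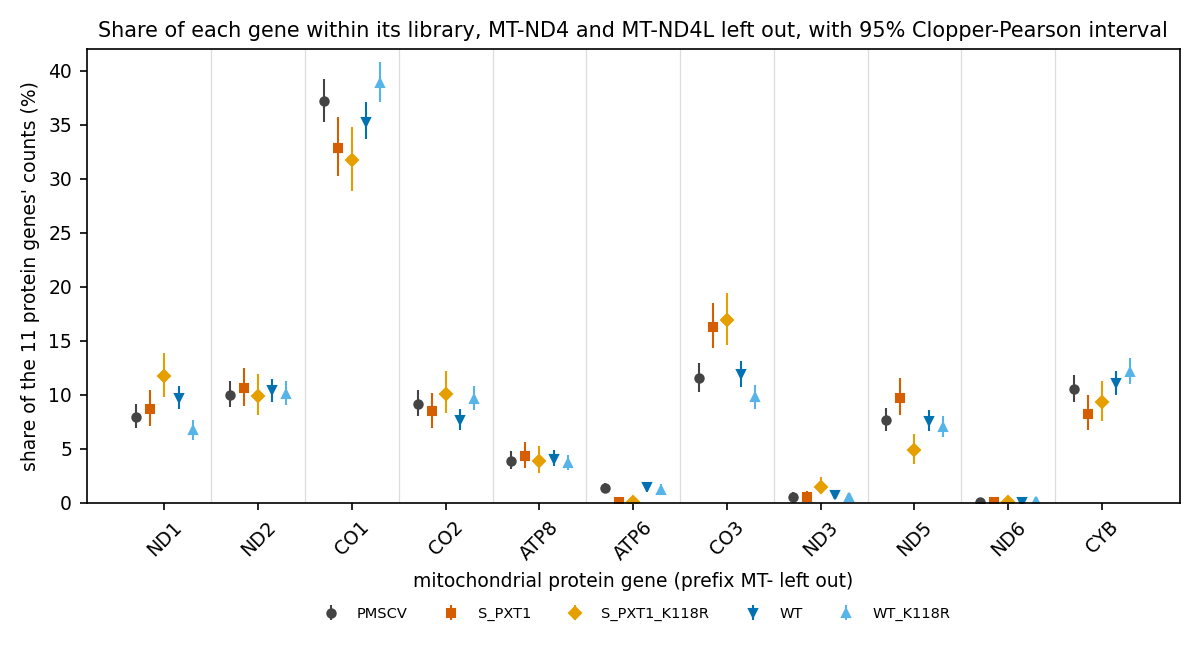
Share of each gene in the counts of the 11 mitochondrial protein genes other than MT-ND4 and MT-ND4L (percent), 1 point per library with its 95% Clopper-Pearson interval. MT-CO3 sits at 16.3% and 16.9% in the S_PXT1 libraries against 9.80% to 11.9% in the other 3, and MT-ND2 is near 10% in all.

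The nuclear genes that make and handle mitochondrial RNA were counted thinly. Of 44 such genes, all matched in the table, 39 had a mean of at least 1 CPM and 2 a mean of at least 20 counts. In S_PXT1 over PMSCV 22 of the 39 were lower and 3 higher by 2-fold, where 43.8% and 8.64% of all 13352 genes were. The median log2 ratio was -1.34 over the list and -0.56 over all genes. In S_PXT1_K118R over WT_K118R 18 were lower and 4 higher, against 44.0% and 8.94% of all genes, with a median of -0.49 over both the list and all genes. In S_PXT1_K118R over PMSCV 25 were lower and 5 higher, against 44.9% and 8.39% of all genes. In S_PXT1 over WT 17 were lower and 6 higher, against 42.5% and 9.02%, a share of lower genes near that of all genes. Against PMSCV, 12 were lower and 7 higher in WT (23.2% and 20.3% of all genes) and 13 and 6 in WT_K118R (24.0% and 19.9%). For the substitution the counts were 11 and 9 in S_PXT1_K118R over S_PXT1 (17.6% and 15.2% of all genes) and 11 and 5 in WT_K118R over WT (20.9% and 19.2%). Summed counts of the list had a ratio of 0.853 (0.718 to 1.01) for S_PXT1 over PMSCV and 0.833 (0.697 to 0.993) for S_PXT1_K118R over WT_K118R. REXO2 alone held 139 of the list's 307 counts in PMSCV and 170 of 239 in S_PXT1. Without it the sums were 168 counts in PMSCV and 69 in S_PXT1, and the ratios 0.450 (0.335 to 0.599) and 0.457 (0.328 to 0.628). REXO2 was left out after seeing the values, and 1 of the remaining genes had a mean of at least 20 counts. Whether these ratios differ from those of other genes of like depth was not tested.

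REXO2, an oligoribonuclease of the mitochondria and cytosol, had 139, 170, 156, 237 and 179 counts in PMSCV, S_PXT1, S_PXT1_K118R, WT and WT_K118R. Its ratio was 1.34 (1.07 to 1.69) for S_PXT1 over PMSCV and 1.40 (1.13 to 1.74) for WT over PMSCV. For S_PXT1 over WT it was 0.956 (0.781 to 1.17). POLG, the polymerase of mitochondrial DNA, had 21, 24, 17, 20 and 27 counts, which do not separate the libraries. LRPPRC, which stabilises mitochondrial messengers, had 23 counts in WT, 26 in WT_K118R and 26 in PMSCV, against 10 in S_PXT1 and 2 in S_PXT1_K118R. Its ratio was 0.422 (0.181 to 0.904) for S_PXT1 over PMSCV and 0.102 (0.0117 to 0.408) for S_PXT1_K118R over WT_K118R. The S_PXT1 libraries had the fewest counts of LRPPRC, but its S_PXT1 over WT ratio, 0.58 (0.246 to 1.27), had 1 inside the interval.

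GRSF1, a protein of mitochondrial RNA granules, had 11, 2, 1, 4 and 8 counts in PMSCV, S_PXT1, S_PXT1_K118R, WT and WT_K118R, and SSBP1, which binds single-stranded mitochondrial DNA, had 9, 2, 4, 4 and 6. TBRG4, of the FASTK family of mitochondrial RNA regulators, had 9, 5, 3, 3 and 11 counts. PTCD3, a mitoribosomal protein, had 11 counts in WT, 10 in PMSCV, 4 in WT_K118R and 0 in both S_PXT1 libraries. SUPV3L1, a helicase of the mitochondrial degradosome, had 8, 2 and 2 counts in PMSCV, WT and WT_K118R and 0 in both S_PXT1 libraries. TOP1MT, a mitochondrial topoisomerase, had 4, 4 and 7 counts in PMSCV, WT and WT_K118R and 0 in both S_PXT1 libraries. TFAM, which packages and transcribes mitochondrial DNA, had 4, 0, 1, 4 and 2 counts in the order given for GRSF1, too few to separate the libraries.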

How the data were processed

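For each of 5 libraries the deposited table holds a whole-number count and an FPKM (count per length and library size) of every gene, per the file headers. HISAT2 2.2.1, cutadapt 1.9 and FastQC are listed in the submitters' processing notes without their roles. The sources used here do not give the counter, strand setting, genome build, annotation or library preparation. Coordinates are those of the table. Between PMSCV and each other library, the ratio of deposited FPKM to count changed by a single factor, within 0.01 (log2), for at least 99.98% of genes compared. For the 15 members FPKM was also inverse to the span in the table. There were 0 value columns without a library.

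Library sizes were scaled with TMM factors (edgeR 4.0.16, R 4.3.3). Genes entered at a mean of 1 CPM, and calls were 2-fold on log2(CPM + 1). Ratios use no pseudocount and carry exact 95% intervals of a ratio of 2 Poisson counts. They cover counting error only, since no molecular identifiers are recorded and reads may be copies of 1 molecule. A count of 0 was bounded at 3 counts, between 8.77 and 11.8 CPM, and no ratio is given where both counts were at most 3. Shares carry Clopper-Pearson intervals. The calculation of ratios and intervals was checked on simulated counts with Poisson error alone, for genes of at least 20 mean counts. Such counts hold only the error that the intervals assume. The check thus cannot show whether the intervals hold for the deposited counts. DESeq2 1.42.0 gave alternative size factors.

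All members are named. Of the nuclear list, the 6 highest in mean CPM and the 4 with the largest ratios at a mean of at least 5 CPM are named, and of the nuclear copies the 5 with most counts. Members and lists were chosen with earlier results of these data known. Chosen after seeing the values were the summed FPKM of pairs, sums with nuclear copies, shares over 11 genes, leaving out MT-CO1 or REXO2, shares of MT-RNR2 without the MT-ND4 pair and the count of genes with both S_PXT1 libraries below or above the rest.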

Additional observations from a re-analysis of the deposited data

How the results depend on the processing

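No paired analysis was possible because each group held 1 library, and leaving out replicates did not apply. Scaling by DESeq2 size factors kept all 56 sums by complex and all 16 sums of overlapping pairs inside their counting interval. Scaling by total counts moved 7 of 56 sums, and by totals outside the mitochondrial chromosome also 7. All members of S_PXT1 over PMSCV came to 0.528 and 0.525, complex IV to 0.919 and 0.920 for WT over PMSCV and 0.915 and 0.915 for WT_K118R over PMSCV. Under either total, the 13 protein genes came to 1.12 for WT over PMSCV and 1.07 for WT_K118R over PMSCV, and all members to 1.04 and 1.

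Leaving out MT-ND4 and MT-ND4L changed complex I to 0.484 for S_PXT1_K118R over PMSCV, 1.14 for WT over PMSCV, 0.922 for WT_K118R over PMSCV, 0.541 for S_PXT1 over WT, 0.525 for S_PXT1_K118R over WT_K118R, 0.785 for S_PXT1_K118R over S_PXT1 and 0.809 for WT_K118R over WT. The 13 protein genes, at 0.524, 1.21, 1.17, 0.456 and 0.949 in the first 4 of these and in S_PXT1_K118R over S_PXT1, came to 0.454, 1.05, 0.986, 0.521 and 0.830. By summed FPKM they came to 0.461, 0.981, 0.912, 0.550 and 0.854, and to 0.505 for S_PXT1_K118R over WT_K118R. Without MT-CO1 they came to 0.600, 1.33 and 1.24 against PMSCV for S_PXT1_K118R, WT and WT_K118R, and to 0.484 for S_PXT1_K118R over WT_K118R. The locus of MT-ND4 and MT-ND4L turned its direction with summed FPKM for S_PXT1_K118R over PMSCV (0.449), WT over PMSCV (0.992) and S_PXT1_K118R over S_PXT1 (0.713), since the 2 spans differ, and came to 1.06 for WT_K118R over PMSCV and 0.635 for S_PXT1 over WT.

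The number of members lower in S_PXT1 over PMSCV, 5 here, was 2 with DESeq2 size factors, 3 with a pseudocount of 5 CPM, 11 at 1.5-fold and 1 at 3-fold. At 3-fold 4 were lower in S_PXT1_K118R over PMSCV, 2 in S_PXT1 over WT and 3 in S_PXT1_K118R over WT_K118R, with 1 lower and 1 higher in S_PXT1_K118R over S_PXT1 and 0 higher in WT_K118R over WT. At 1.5-fold 10 were lower in S_PXT1 over WT, 3 lower in WT_K118R over WT and 2 higher in WT_K118R over PMSCV, where a pseudocount of 0.1 CPM also gave 2. A pseudocount of 5 CPM left 0 lower and 0 higher in WT_K118R over WT. With a filter at a mean of 5 CPM the share of all genes higher was 12.2% in WT over PMSCV and 12.0% in WT_K118R over PMSCV. As a share of all mitochondrial counts MT-CO1 took 26.9%, 23.2%, 22.0%, 23.9% and 25.5% in PMSCV, S_PXT1, S_PXT1_K118R, WT and WT_K118R. As a share of the 11 protein genes without the MT-ND4 pair it took 31.7%, 35.3% and 38.9% in the last 3. Without REXO2 the summed nuclear list came to 0.450, 0.349, 0.744 and 0.764 over PMSCV for S_PXT1, S_PXT1_K118R, WT and WT_K118R, to 0.605 for S_PXT1 over WT, 0.457 for S_PXT1_K118R over WT_K118R and 1.03 for WT_K118R over WT. With REXO2 these were 0.853, 0.753, 1.04, 0.904, 0.819, 0.833 and 0.868. Single-gene ratios stayed inside their interval under total counts, DESeq2 size factors and FPKM in all 115 cases each. With MTATP6P1 added, MT-ATP6 left its interval in 4 of 8 comparisons. Depth limits MT-ND3, MT-ND6 and most of the nuclear list.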
